A study of Mus musculus with 12 samples.

Results

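Stefins and cystatins are inhibitors of papain-like cysteine proteases, and Asprv1 encodes an aspartic protease. The levels of 8 such genes were examined in 12 RNA-seq libraries of myeloid-derived suppressor cells (MDSCs): the stefin A genes Stfa1, Stfa2, Stfa2l1 and Stfa3, the stefin B gene Cstb, the cystatin C gene Cst3, the cystatin F gene Cst7, and Asprv1. All 8 were found by symbol among the 24346 gene symbols of each table. The genes were chosen with values of these same libraries in view. Stfa1 was known to be among the larger decreases under MS-275 in one cell type, and for the other 7 genes the value that selected them was not recorded. Their levels and differences are therefore given as a description without p-values. All 8 passed the filter on low values, FPKM of at least 1 in at least 2 of the libraries fitted.

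The libraries came from wild-type female C57BL/6J mice, 6 to 8 weeks old, that carried orthotopic liver tumors of Hepa 1-6, a mouse hepatoma line. According to the methods of the study, mice were picked for treatment by their proportion of MDSCs in blood at day 10, received vehicle, MS-275 or CXD101 intraperitoneally each day for 10 days, either inhibitor at 5 mg/kg, and gave tumors at day 21. MS-275 (entinostat, a benzamide) and CXD101 are described there as inhibitors of the histone deacetylases HDAC1, HDAC2 and HDAC3. Tumor cells were sorted into monocytic M-MDSCs (CD11b+Ly-6ChiLy-6G-) and polymorphonuclear PMN-MDSCs (CD11b+Ly-6CintLy-6G+), so there were 6 groups of 2 libraries: M-MDSCs from vehicle, MS-275 and CXD101 mice, and PMN-MDSCs from the same 3 treatments. The study calls the M-MDSC libraries biological replicates. Whether a library holds cells of 1 mouse or of several, and whether the M-MDSC and PMN-MDSC libraries share mice, is not given in the sources used here, and for PMN-MDSCs the spread between libraries may be in part technical. Sorting by the same antibodies in every group means that a shift in the make-up of a sorted gate and a change of RNA within a cell cannot be told apart in these bulk samples, nor can fewer cells of a type and less RNA per cell.

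Stefins lack a signal peptide and act in the cytosol, where they bind cathepsins that leak from lysosomes. Mouse stefin A genes form a recently expanded cluster on chromosome 16 and are known for expression in neutrophils and stratified epithelium. Cystatins C and F carry signal peptides: cystatin C is secreted by most cells and cystatin F is directed to the endolysosomes of immune cells. Asprv1, also called SASPase, is a retroviral-like aspartic protease best known from keratinocytes, where it cleaves profilaggrin, and it has been described in mouse neutrophils as well.

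The 4 stefin A genes lie close together on chromosome 16 (build GRCm38, the build mm10 of the files). Stfa2l1 spans chr16:36156811-36161953 on the plus strand, Stfa1 chr16:36276951-36285373 on the plus strand, Stfa2 chr16:36403992-36408457 on the minus strand and Stfa3 chr16:36450537-36455392 on the minus strand, each with 3 coding exons. A further 6 genes of this cluster were listed in the tables (Csta1, Gm5483, Gm5416, 2010005H15Rik, BC117090 and BC100530). Cstb lies at chr10:78425669-78427622 on the plus strand, Cst3 at chr2:148871722-148875692 on the minus strand, Cst7 at chr2:150570415-150578944 on the plus strand and Asprv1, a gene of 1 exon, at chr6:86628164-86629710 on the plus strand.

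Reads from near-identical copies can be divided between genes by the quantification, so the coding sequences were compared first. The coding sequence of Stfa2 was 96.5% identical to that of Stfa2l1, and that of Stfa1 was 98.0% identical to BC100530, but Stfa1 and Stfa2 shared only 74.7%. The first 90 coding bases of both close pairs, read from the GRCm38 annotation, are shown as an example of how close the copies are; further differences lie outside the printed stretch. Capitals mark bases that differ within the pair, 6 for Stfa2 with Stfa2l1 and 3 for Stfa1 with BC100530.
Stfa2: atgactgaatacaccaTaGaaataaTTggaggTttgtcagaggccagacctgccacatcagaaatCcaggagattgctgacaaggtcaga
Stfa2l1: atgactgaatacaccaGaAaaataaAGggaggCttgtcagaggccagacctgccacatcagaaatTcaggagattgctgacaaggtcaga
Stfa1: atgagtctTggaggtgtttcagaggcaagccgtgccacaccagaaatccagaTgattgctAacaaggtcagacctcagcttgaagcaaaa
BC100530: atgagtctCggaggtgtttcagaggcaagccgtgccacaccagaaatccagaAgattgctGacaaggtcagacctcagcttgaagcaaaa
Most of each printed stretch was lower case, that is, shared within its pair.

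Each transcript was then cut into windows of 101 bases, the read length. In Stfa1, 5.42% of windows had an identical copy in BC100530, whereas Stfa2, Stfa2l1, Stfa3, Cstb, Cst3, Cst7 and Asprv1 had 0 such windows in the transcripts compared. With up to 2 mismatches, 42.4% of Stfa1 windows matched BC100530, 29.9% of Stfa2 windows matched Stfa2l1 and 34.8% of Stfa2l1 windows matched Stfa2. Stfa3 and the 4 genes outside the cluster shared none within that limit. The search with mismatches covered only the members and the cluster genes quantified here, not other transcripts. The level of Stfa1 is therefore uncertain with respect to BC100530, and the division between Stfa2 and Stfa2l1 is uncertain. Stfa3 is the stefin A member whose windows were separable among the genes searched.

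**Figure D1:**
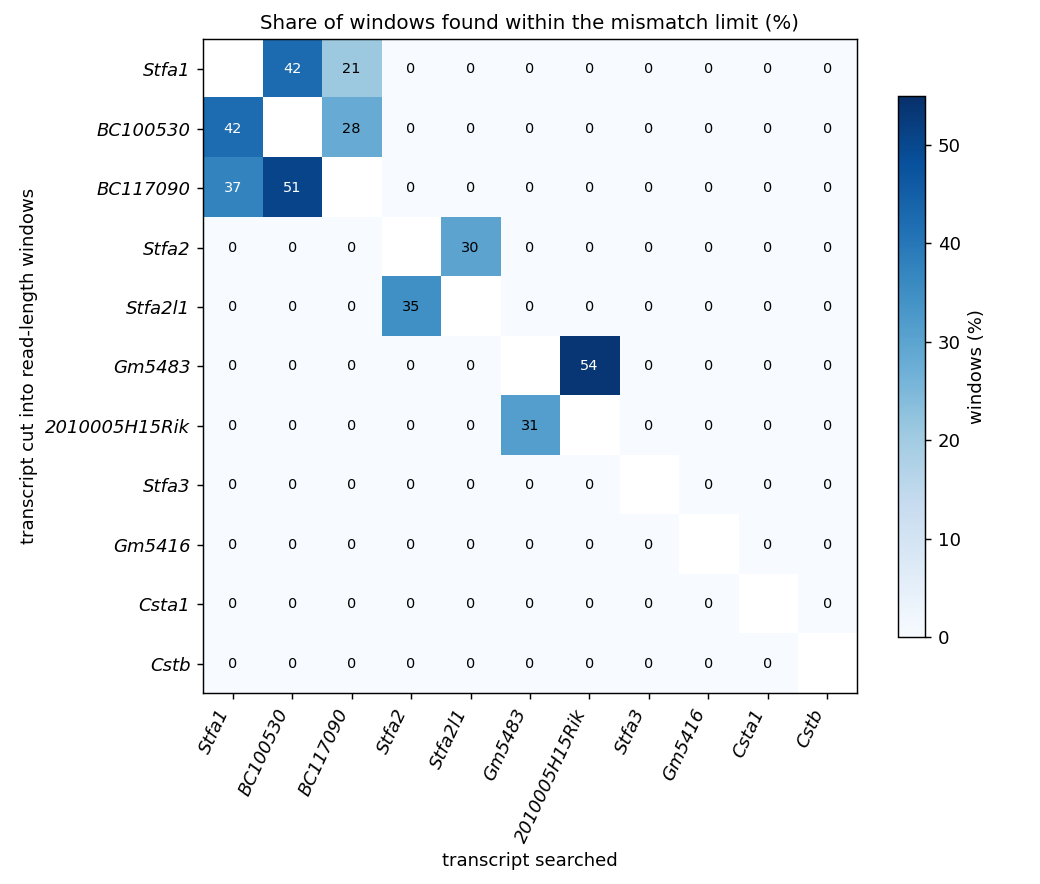
Share of 101-base windows of each transcript (row) that matched another transcript (column) with at most 2 mismatches, in percent, for the genes of the stefin A cluster and Cstb. Off the diagonal, matches fell in 3 blocks: Stfa1 with BC100530 and BC117090, Stfa2 with Stfa2l1, and Gm5483 with 2010005H15Rik.

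The promoters of the 4 stefin A members resembled each other too, with 89.4% identity between Stfa2 and Stfa2l1 and 83.1% between Stfa1 and Stfa3 over the 250 bases before the RefSeq start. The 120 bases before the start of Stfa2l1, whose RNA was the most abundant of the 4 in PMN-MDSCs, and of Stfa3, whose differences between groups were unlike those of the others, are shown for comparison (RefSeq, GRCm38.p6). Stfa2l1 is read from chr16:36156691-36156810 on the plus strand and Stfa3 from chr16:36455393-36455512 on the minus strand. Capitals mark the longest run shared by the promoters of Stfa1, Stfa2, Stfa2l1 and Stfa3, which was picked by that comparison.
Stfa2l1: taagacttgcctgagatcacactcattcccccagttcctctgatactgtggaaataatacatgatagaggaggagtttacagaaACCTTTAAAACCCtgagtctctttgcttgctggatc
Stfa3: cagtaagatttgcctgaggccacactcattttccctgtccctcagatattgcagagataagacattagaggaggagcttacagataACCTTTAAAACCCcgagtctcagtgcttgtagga
The run ACCTTTAAAACCC of 13 bases lay 36 to 24 bases upstream of the start in Stfa2l1 and 34 to 22 bases upstream in Stfa3. It was present in 8 of 32851 RefSeq promoters (0.0244%), those of the 4 members, of Csta3, Cstdc3 and Cstdc4, which are RefSeq names of cluster genes, and of Gm7260. Short motifs were searched on both strands without any match in the promoters of the 4 stefin A members: TATAAA, held by 12.4% of all promoters, AGGAAGT (7.69%), TTGNNCAA (5.65%) and TGANTCA (6.75%). Among promoters of Cst3, Cst7 and Asprv1 there was 1 match, AGGAAGT at 63 bases upstream of Cst7. These are matches of letters and not sites.

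The tables hold no counts, so the number of reads per library was inferred from what 1 read adds to the FPKM of weakly expressed long genes. In units of 1000000 reads it ran from 8.48 to 10.78 in M-MDSC libraries (median 9.25) and from 6.7 to 8.26 in PMN-MDSC libraries (median 7.57). Reads of a gene were estimated from its FPKM, its full transcript length and this depth. Such estimates run high for short transcripts. The lowest value above 0 was 1.91 for BC117090 and 2.75 for Gm5416, where a single read should give 1. The estimates for stefin A genes are therefore likely too high. PMN-MDSCs from vehicle mice had 10 of 12 neutrophil marker genes higher and 2 (Elane and Mpo) lower than M-MDSCs from vehicle mice. These PMN-MDSCs also held 10 of 10 monocyte and macrophage markers at an FPKM of at least 1 (summed FPKM 808 to 893, against 1734 to 1794 in M-MDSCs). Of these 10, 4 (Adgre1, C1qa, C1qc and Cx3cr1) were higher in PMN-MDSCs and 3 (Ccr2, Fn1 and Ly6c2) lower, with a median log2 difference of 0.40. The rule for these counts is given below, and 34.0% of all genes met it in either direction. The summed neutrophil markers were 73188 to 99199.5 in PMN-MDSCs from vehicle mice, 259996 to 282980 under MS-275 and 275719 to 301584 under CXD101. In M-MDSCs the corresponding ranges were 12462 to 13111, 24838 to 29028 and 24739 to 26029. S100a8 and S100a9 together took 10.2 to 13.7% of all FPKM in PMN-MDSCs from vehicle mice, 27.3 to 29.7% under MS-275 and 28.7 to 30.9% under CXD101, and at most 4.28% in any M-MDSC library. Dendritic cell markers summed to 123 to 145 in PMN-MDSCs from vehicle mice, against 16.3 to 16.9 and 15.9 to 20.6 in the treated groups. Summed markers of lymphocytes, hepatocytes and erythroid cells were at most 3.45, 2.29 and 0.873 in every library.

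Differences were fitted with limma on log2(FPKM + 1), so fold changes of low genes are understated on that scale. A gene met the call rule when its Benjamini-Hochberg adjusted p over all genes tested was under 0.05 and its fold change was above 1.5. Under MS-275, 1 member was higher and 4 were lower in M-MDSCs by this rule, where 10.1% and 7.32% of the 11078 genes tested were called higher and lower. Under CXD101 in M-MDSCs 2 members were higher and 2 lower, where 5.14% and 3.0% of genes were called. In PMN-MDSCs, 1 member was higher and 4 were lower under MS-275, where 14.6% and 14.2% of 11184 genes were called higher and lower, and again 1 was higher and 4 lower under CXD101, where 11.9% and 9.54% were called. Because these contrasts may have selected the members, nothing is read from the counts. The median log2 fold change of the 8 members was -0.66, -0.15, -0.82 and -0.71 in these 4 comparisons, beside medians over all genes of -0.06, -0.02, -0.03 and -0.03. Both treatments were compared with the same vehicle libraries, so the treatments' values are not independent of each other.

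**Figure D2:**
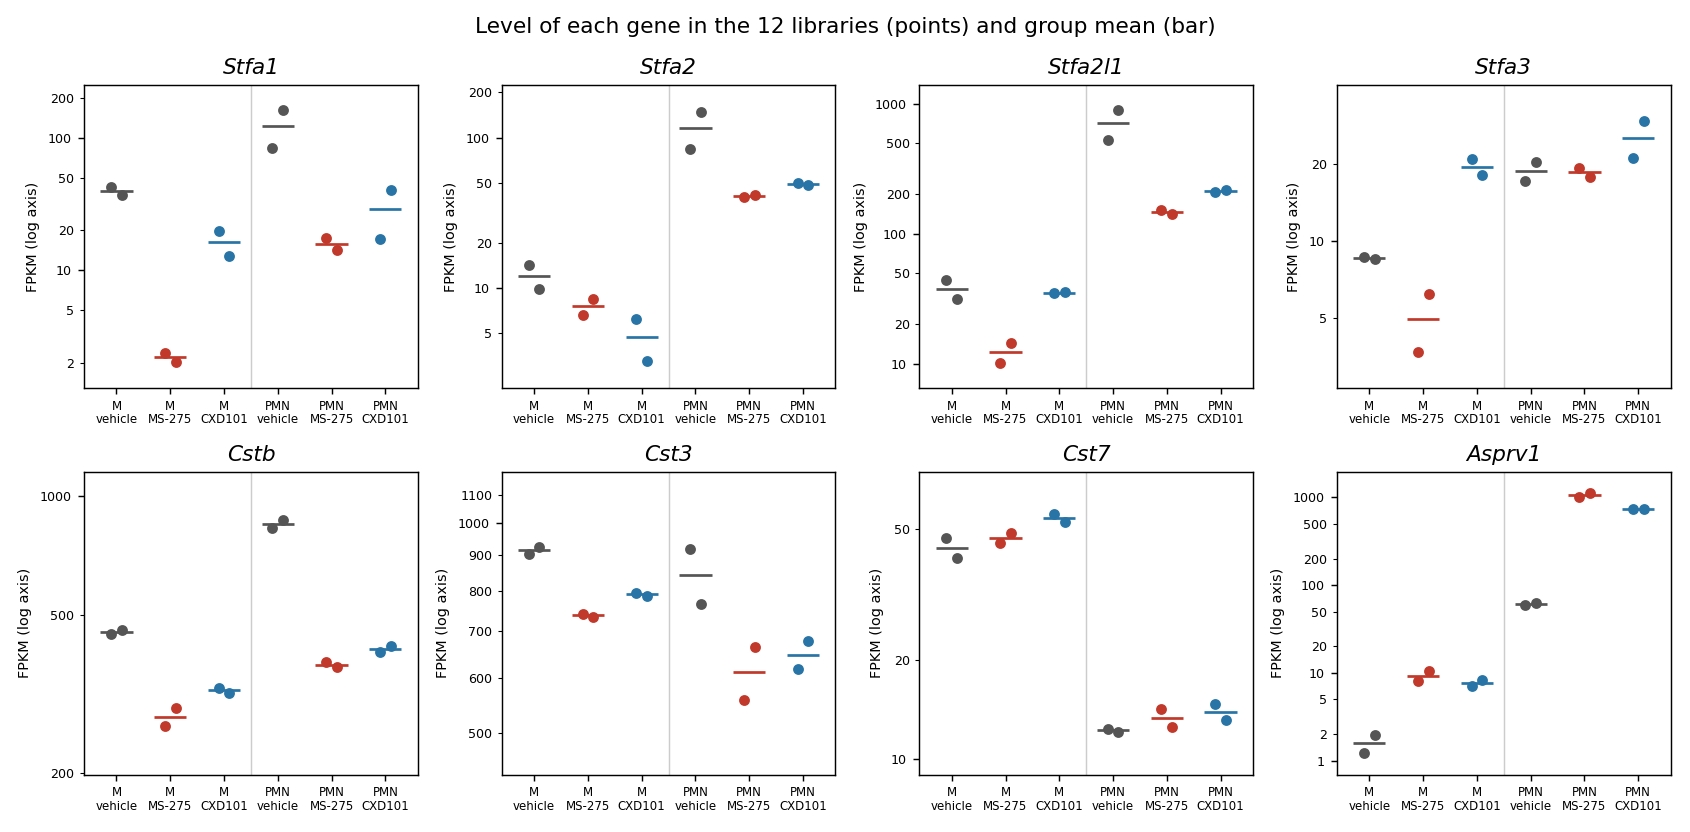
FPKM of the 8 genes (log axis) in each of the 12 libraries (points) with the mean of the 2 libraries of a group (bars), M-MDSCs left and PMN-MDSCs right of the grey line in each panel. The stefin A genes other than Stfa3 stand highest in PMN-MDSCs from vehicle mice, and Asprv1 stands highest in treated PMN-MDSCs, between 738 and 1115.

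Stfa1 is a stefin A gene, an inhibitor of cysteine cathepsins. In M-MDSCs its FPKM was 42.7 and 36.8 under vehicle, 2.39 and 2.02 under MS-275, and 19.8 and 12.8 under CXD101. The 3 groups did not overlap, and the MS-275 libraries rested on an estimated 15.9 and 10.6 reads. In PMN-MDSCs it was 84.3 and 161 under vehicle, 17.5 and 14.3 under MS-275 and 17.3 and 40.4 under CXD101, so both vehicle libraries stood above all treated ones and the treated groups overlapped. The mean of 39.8 ± 4.23 (SD, n = 2) in vehicle M-MDSCs was 18-fold that of 2.21 ± 0.267 under MS-275 (log2 fold change -3.67, SE 0.18) and 2.44-fold that under CXD101 (-1.26). In PMN-MDSCs the mean under vehicle, 123 ± 54.6, was 7.71-fold that under MS-275 (-2.80, SE 0.40) and 4.26-fold that under CXD101 (-2.10, SE 0.40). All 4 differences met the call rule. The CXD101 value in PMN-MDSCs was -1.51 without the first CXD101 library and -2.69 without the second, and it met the rule both times. In the order of the 6 groups, neighbours overlapped from M-MDSC vehicle down to PMN-MDSC MS-275, and only PMN-MDSC vehicle at the top and M-MDSC MS-275 at the bottom were separate from their neighbours.

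Stfa2l1 had the highest FPKM of the 4 stefin A members in PMN-MDSCs. Its level there was 529 and 891 under vehicle, 153 and 143 under MS-275 and 209.6 and 217 under CXD101, with no overlap between groups. The vehicle mean of 709.9 was 4.80-fold that under MS-275 (log2 fold change -2.21, SE 0.20) and 3.33-fold that under CXD101 (-1.68). In M-MDSCs the FPKM was 44.0 and 31.4 under vehicle, 10.2 and 14.4 under MS-275 and 34.8 and 35.4 under CXD101. The MS-275 libraries were the low ones, 3.07-fold below vehicle in the mean (-1.54, SE 0.18), while the CXD101 libraries lay between both vehicle libraries (-0.08). The 2 differences in PMN-MDSCs and that of MS-275 in M-MDSCs met the call rule.

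Stfa2, the copy closest to Stfa2l1, was lower than it in each of the 12 libraries. In PMN-MDSCs its FPKM was 84.4 and 148 under vehicle, 40.2 and 41.5 under MS-275 and 49.6 and 48.2 under CXD101, a mean 2.85-fold lower under MS-275 (log2 fold change -1.43, SE 0.22) and 2.38-fold lower under CXD101 (-1.18). Both met the call rule, with the 2 vehicle libraries highest. In M-MDSCs the FPKM was 14.2 and 9.88 under vehicle, 6.63 and 8.38 under MS-275 and 6.15 and 3.26 under CXD101. Here the CXD101 group was the lowest, 2.56-fold below vehicle (-1.22, SE 0.25, call rule met), and the MS-275 difference of -0.61 (SE 0.25) did not meet the rule. The CXD101 call was lost without the first vehicle library. How far reads of Stfa2l1 entered the Stfa2 values was not tested.

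Stfa3 did not follow the other stefin A members. In PMN-MDSCs its FPKM was 17.1 and 20.3 under vehicle, 19.3 and 17.7 under MS-275 and 21.1 and 29.3 under CXD101. Vehicle and MS-275 overlapped (log2 fold change -0.01, SE 0.15), and the CXD101 libraries were both above vehicle by 0.40 (SE 0.15), which did not meet the call rule; it met the rule when the first CXD101 library was left out. In M-MDSCs the FPKM was 8.61 and 8.51 under vehicle, 3.69 and 6.22 under MS-275 and 20.8 and 18.1 under CXD101, so the 2 inhibitors stood on opposite sides of vehicle. The mean under CXD101 was 2.27-fold higher than under vehicle (1.09) and that under MS-275 was 1.73-fold lower (-0.72, SE 0.18), and both met the call rule. The MS-275 call was lost without the first vehicle library or without the first MS-275 library. The MS-275 libraries rested on an estimated 16.4 and 21.7 reads, which is likely too many for so short a transcript.

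**Figure D3:**
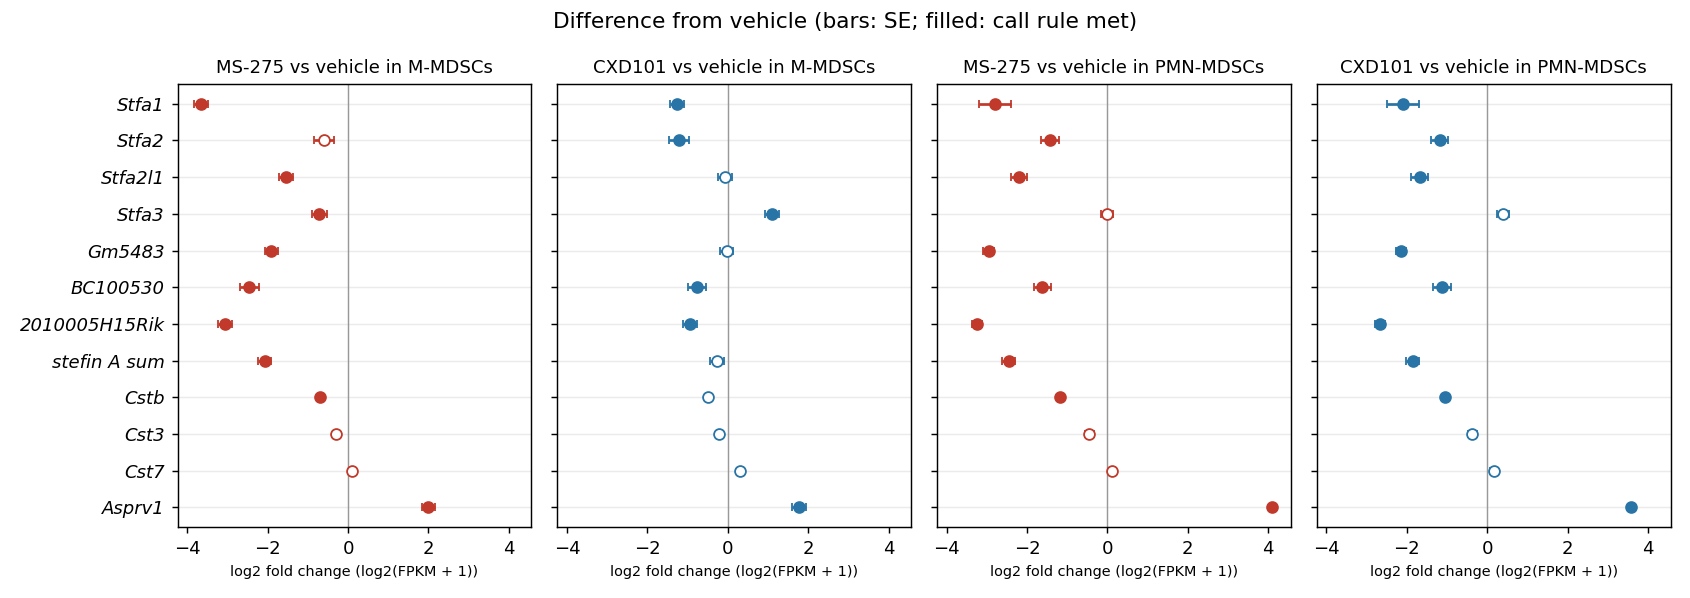
Log2 fold change from vehicle, on the log2(FPKM + 1) scale with SE bars, of the 8 members, 3 further stefin A cluster genes and the summed stefin A level, in M-MDSCs (2 left panels) and PMN-MDSCs (2 right panels). Filled points met the call rule: Asprv1 is filled on the positive side in all 4 panels (1.77 to 4.10), while Stfa2l1 and Gm5483 sit near 0 under CXD101 in M-MDSCs.

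Because reads can pass between copies, the FPKM of the 10 cluster genes found in the tables were also added up. 2010005H15Rik was added to the cluster after values were seen. In PMN-MDSCs the sum was 1938 and 2907 under vehicle, 439.9 and 419.7 under MS-275 and 624 and 694 under CXD101. The vehicle libraries stood highest, 5.64-fold above MS-275 and 3.67-fold above CXD101 in the mean (log2 fold changes -2.46 and -1.85), and the groups did not overlap. In M-MDSCs the sum was 539 and 414 under vehicle, 101 and 122 under MS-275 and 456 and 335 under CXD101. It was 4.27-fold lower under MS-275 (-2.08, SE 0.17), whereas the CXD101 libraries overlapped vehicle (-0.27, SE 0.17). The mean sum in PMN-MDSCs from vehicle mice, 2422, would rank 18 of all symbols there. The lower PMN-MDSC sums stand beside the larger share of FPKM taken by S100a8 and S100a9 in the treated groups. The part of that share in the sums was not tested, and the sums were not refitted with rescaled libraries. Single members were refitted with libraries rescaled by median ratios or quantiles. Every treatment difference of a member then kept its sign except that of Stfa3 under MS-275 in PMN-MDSCs, which was near 0 in all 3 cases. A kept sign does not measure that part.

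Gm5483, a stefin A cluster gene that is not a member, made up the largest part of the sum in 12 of 12 libraries. Its share was 52.4 to 53.7% in vehicle M-MDSCs, 58.6 to 60.0% under MS-275 and 61.8 to 64.0% under CXD101. In PMN-MDSCs it was 47.5 to 52.2% under vehicle, 34.1 to 36.2% under MS-275 and 38.8 to 42.2% under CXD101. Stfa2l1 held 7.58 to 8.16% of the sum in vehicle M-MDSCs but 27.3 to 30.7% in vehicle PMN-MDSCs, 34.0 to 34.8% under MS-275 and 31.2 to 33.6% under CXD101. Stfa1 went from 7.93 to 8.89% in vehicle M-MDSCs to 1.65 to 2.38% under MS-275. As quantified, the stefin A RNA of the sorted populations differed in make-up as well as in amount. The shares depend on how reads of near-identical copies were divided, which is not known. With up to 2 mismatches, 53.5% of Gm5483 windows matched 2010005H15Rik.

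Of the cluster genes tested, 4 of them members, 0 were higher and 6 of 8 lower under MS-275 in M-MDSCs, where 7.32% of all genes were called lower, and 1 was higher and 4 lower under CXD101, where 3.0% were called lower. In PMN-MDSCs 0 were higher and 7 of 9 lower under either inhibitor, where 14.2% (MS-275) and 9.54% (CXD101) of all genes were called lower. The 4 members and 2010005H15Rik were included with values of these libraries in view, and copies can share reads. Nothing is therefore read from these counts. The genes BC100530 (89.2 and 56.9 under vehicle in M-MDSCs, 10.1 and 14.6 under MS-275, 48.0 and 36.1 under CXD101) and 2010005H15Rik (56.1 and 47.2, 5.55 and 5.01, 32.8 and 21.4) were lower under both inhibitors there. Gm5416 was near 1 in vehicle M-MDSCs (0.987 and 1.03) and 18.6 and 34.7 in vehicle PMN-MDSCs. BC117090 never exceeded 2.43 and Csta1 was listed at 0 throughout.

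**Figure D4:**
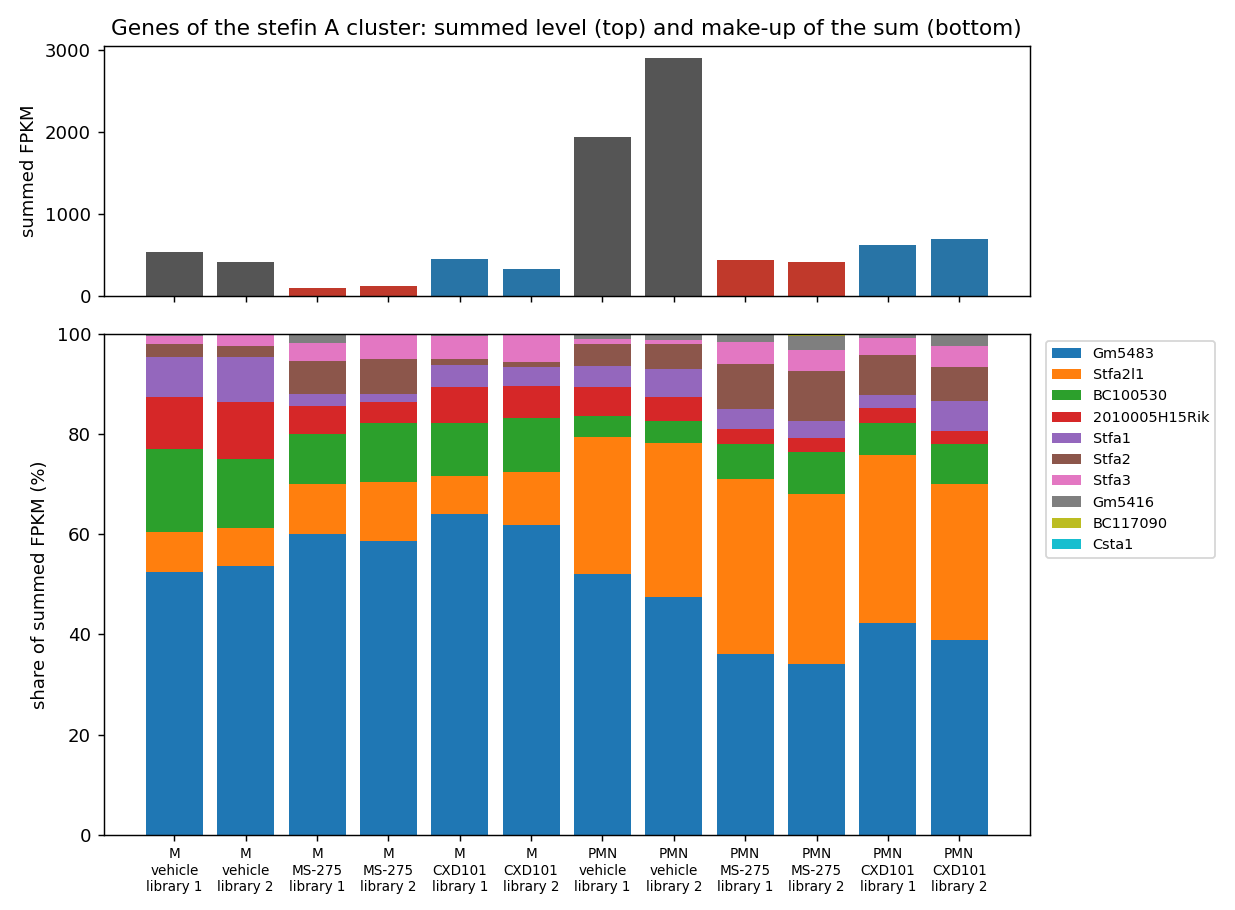
Summed FPKM of the 10 stefin A cluster genes in each library (top) and the percent of that sum held by each gene (bottom). The sums run from 101 to 2907, and the part of Stfa2l1 is larger in all 6 PMN-MDSC libraries than in the 6 M-MDSC libraries.

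Cstb encodes stefin B, a cytosolic inhibitor of cathepsins, and was more abundant than any of the 4 stefin A members in 11 of 12 libraries. In PMN-MDSCs its FPKM was 831 and 868 under vehicle, 382 and 369 under MS-275 and 404 and 418 under CXD101. The mean was 2.26-fold lower under MS-275 (log2 fold change -1.18, SE 0.06) and 2.07-fold lower under CXD101 (-1.05), without overlap and with the call rule met. In M-MDSCs it was 449 and 459.7 under vehicle, 263 and 292 under MS-275 and 328 and 319 under CXD101. The mean was 1.64-fold lower under MS-275 (-0.71, SE 0.06, call rule met) and 1.40-fold lower under CXD101 (-0.49, not met). None of the 6 groups overlapped its neighbour in order of level.

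Cst3 encodes cystatin C, the secreted inhibitor. In M-MDSCs its FPKM was 905 and 926 under vehicle, 742 and 734 under MS-275 and 794 and 787 under CXD101. Both treated groups lay below vehicle, by -0.31 (SE 0.05) and -0.21 on the log2 scale, short of the fold change of the call rule. In PMN-MDSCs it was 919 and 765 under vehicle, 559 and 666 under MS-275 and 618 and 678 under CXD101 (-0.46, SE 0.11, and -0.37), again lower in both treated groups without meeting the rule. The MS-275 call in PMN-MDSCs was made when the second vehicle library or the second MS-275 library was left out.

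Cst7 encodes cystatin F, which controls cathepsins within endolysosomes of immune cells. Its FPKM in M-MDSCs was 46.8 and 40.7 under vehicle, 45.4 and 48.5 under MS-275 and 55.3 and 52.5 under CXD101. In PMN-MDSCs it was 12.3 and 12.1 under vehicle, 14.2 and 12.5 under MS-275 and 14.7 and 13.1 under CXD101. The 4 differences from vehicle, 0.10, 0.30, 0.12 and 0.17 on the log2 scale, did not meet the call rule, and the lowest M-MDSC library exceeded the highest PMN-MDSC library.

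Asprv1, the retroviral-like aspartic protease, was the member that met the call rule as higher in all 4 comparisons with vehicle; Cst7 was also higher in all 4 but did not meet it. In PMN-MDSCs its FPKM was 59.7 and 63.0 under vehicle, 1018 and 1115 under MS-275 and 738 and 742 under CXD101, so the groups were far apart relative to the spread of their libraries. The mean was 17.4-fold higher under MS-275 (log2 fold change 4.10, SE 0.07) and 12.1-fold higher under CXD101 (3.57). Among all symbols its mean held rank 1521 under vehicle, 66 under MS-275 and 106 under CXD101. In M-MDSCs the FPKM was 1.22 and 1.94 under vehicle, 8.04 and 10.5 under MS-275 and 7.17 and 8.28 under CXD101. It was 5.86-fold and 4.89-fold higher in the treated means (2.0, SE 0.17, and 1.77), while the 2 treated groups overlapped each other. All 4 differences met the call rule. The vehicle M-MDSC values rested on an estimated 17.9 and 27.3 reads. The highest M-MDSC value, 10.5, was below the lowest PMN-MDSC value, 59.7.

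Markers of the skin cells in which Asprv1 is best known were looked at beside it. Of 12 keratinocyte and cornified envelope genes found in the tables, 8 were listed at 0 in both libraries of PMN-MDSCs under MS-275 and 8 under CXD101. Tgm1, a transglutaminase, had a mean FPKM of 12.6 in vehicle PMN-MDSCs, 27.9 under MS-275 and 24.9 under CXD101, and Ivl, encoding involucrin, had 0.299, 4.33 and 2.30. Both of these met the call rule in PMN-MDSCs under both inhibitors. In M-MDSCs, where Asprv1 was also higher, Tgm1 was lower with either inhibitor and met the rule (log2 fold change -0.68 for MS-275 and -0.62 for CXD101). The summed keratinocyte list was at most 33.8 in any library, against an Asprv1 level of 1018 and 1115 under MS-275. Of 12 neutrophil markers, 9 were higher and 1 (Mmp9) lower under MS-275 in PMN-MDSCs, where 14.6% and 14.2% of all genes were called, and 9 were higher and 0 lower under CXD101 (11.9% and 9.54% of all genes). In M-MDSCs 6 were higher and 3 (Camp, Ltf and Mmp9) lower under MS-275 (10.1% and 7.32% of all genes), and 6 were higher and 1 (Mmp9) lower under CXD101 (5.14% and 3.0%). Of the monocyte and macrophage markers, 6 of 10 were lower and 1 was higher in PMN-MDSCs under either inhibitor, and 4 of 9 were lower in M-MDSCs with 2 higher under MS-275 and 1 under CXD101. The shares of all genes are those just given for the neutrophil markers. The summed level of the monocyte and macrophage markers went the other way from these counts: it was 1716 to 1928 under MS-275 and 1633 to 1843 under CXD101 in PMN-MDSCs, and 2927 to 2943 and 2445 to 2517 in M-MDSCs, above the vehicle sums in each case. Ly6c2 was the marker called higher in each comparison, joined by Fn1 under MS-275 in M-MDSCs. The median log2 fold change of the list was -1.09 and -0.95 in PMN-MDSCs and -0.35 and -0.25 in M-MDSCs under MS-275 and CXD101. The sums therefore do not stand for the list as a whole. Eosinophil markers summed to 160 to 197 in vehicle M-MDSCs and to 389 to 418 and 377 to 408 under MS-275 and CXD101, and to 341 to 377, 383 to 421 and 464 to 491 in PMN-MDSCs. The part of these markers in the members' differences was not tested.

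MS-275 and CXD101 were given at the same dose and schedule, so they were set against each other within each cell type, as 1 pair in 2 cell types. In M-MDSCs 3 members met the call rule between them, where 4.40% of all genes did. Stfa1 was 7.40-fold lower in the mean under MS-275 than under CXD101 (log2 difference -2.41, 95% interval -2.81 to -2.0), Stfa3 was 3.93-fold lower (-1.81, interval -2.22 to -1.40) and Stfa2l1 was 2.86-fold lower (-1.46, interval -1.87 to -1.06). Stfa1 was known beforehand for a decrease under MS-275, and its M-MDSC libraries there rested on an estimated 15.9 and 10.6 reads. The intervals of members in both cell types are not adjusted for how the members were chosen and serve as a description. The summed stefin A level differed by -1.81 (interval -2.19 to -1.42). The other members lay closer together: the interval of Asprv1 ran from -0.16 to 0.62, that of Cst3 from -0.21 to 0.02, that of Cst7 from -0.38 to -0.01 and that of Cstb from -0.37 to -0.08. Stfa2 was on the other side, higher under MS-275 by 0.62 (interval 0.05 to 1.18), and did not meet the rule.

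In PMN-MDSCs 0 of 8 members met the call rule between MS-275 and CXD101, where 0.805% of all genes did in the limma fit. Of all genes tested there, 1717 had an unadjusted p under 0.05. Asprv1 was 1.44-fold higher under MS-275 (log2 difference 0.53, 95% interval 0.37 to 0.68), under the fold change of the rule. The intervals of Stfa1 (-1.62 to 0.21), Stfa2 (-0.75 to 0.25), Cst3 (-0.35 to 0.18) and Cst7 (-0.30 to 0.18) included 0, so a difference was not detectable for them with 2 libraries a group, and Stfa1 could differ by more than 2-fold within its interval. Stfa2l1 (-0.99 to -0.06) and Stfa3 (-0.77 to -0.05) leaned lower under MS-275.

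Between the cell types in vehicle mice, 6 members were higher and 1 was lower in PMN-MDSCs than in M-MDSCs, where 34.0% of 11662 genes were called in either direction. Asprv1 differed most, 38.8-fold in the mean (log2 4.61), followed by Stfa2l1 (18.8-fold, 4.17), Stfa2 (9.66-fold, 3.13), Stfa1 (3.09-fold, 1.53), Stfa3 (2.19-fold, 1.04) and Cstb (1.87-fold, 0.90). Cst7 was 3.58-fold lower (-1.76) in PMN-MDSCs, and Cst3 overlapped between the cell types (-0.13). The summed stefin A level was 5.08-fold higher in PMN-MDSCs.

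Whether a treatment's difference from vehicle differed between the cell types was fitted as an interaction. For MS-275, 1 member met the call rule, where 18.1% of all genes did: the Asprv1 difference was larger in PMN-MDSCs by 2.10 on the log2 scale. For CXD101, 2 members met it, where 13.9% of genes did: Asprv1 by 1.80, and Stfa2l1 by -1.60, more negative in PMN-MDSCs. The 1 added to FPKM shrinks the Asprv1 difference in M-MDSCs, where vehicle was 1.22 and 1.94, more than that in PMN-MDSCs. Its interactions are therefore overstated on this scale. Over the other settings they ranged from 1.62 to 2.44 for MS-275 and from 1.34 to 2.13 for CXD101. The summed stefin A level had an interaction of -1.58 under CXD101. For MS-275 the remaining members had interactions between -0.83 (Stfa2) and 0.86 (Stfa1).

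Other genes with a cystatin-like domain were taken from a list of 35 cystatin superfamily symbols, of which 20 were found in the tables and 7 were above 0 in at least 1 library. This list, like those of proteases and other inhibitors below, was chosen with earlier results of these data known. The adjusted p-values of its genes therefore describe the fit and are not independent tests. Ngp (neutrophilic granule protein) and Camp (cathelicidin), granule proteins whose precursors share the cystatin fold, rose in PMN-MDSCs. Ngp had a mean FPKM of 1559 under vehicle, 14431 under MS-275 and 19288 under CXD101, log2 fold changes of 3.21 and 3.63 (limma, Benjamini-Hochberg adjusted p = 4.18e-07 and 2.28e-07). Camp went from 287 to 1888 and 2340 (2.71 and 3.02, limma adjusted p = 4.50e-07 and 3.04e-07). In M-MDSCs Camp fell under MS-275 by 0.98 (limma adjusted p = 0.00698), while Ngp stayed within the fold change of the rule (-0.52 and 0.57). These 2 genes are also on the neutrophil marker list. Cst6 was at most 0.120, and Ahsg, Fetub, Hrg, Kng1 and Kng2 of the plasma cystatins were listed at 0.

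Among the cysteine proteases that stefins and cystatins inhibit, more genes fell than rose in PMN-MDSCs. The list was chosen with earlier results known and the named genes are the largest called differences, so their p-values are a description. Of 9 cysteine cathepsins and legumain tested there, 6 were lower and 0 higher under MS-275 and 6 lower and 0 higher under CXD101 (medians -0.95 and -0.88), where 14.2% and 9.54% of all genes were called lower. In M-MDSCs 4 of 10 were lower and 1 higher under MS-275, and 1 was lower and 0 higher under CXD101 (medians -0.38 and -0.37), where 7.32% and 3.0% of all genes were called lower. Ctsk, cathepsin K, fell in all 4 comparisons, by 2.29 and 0.99 in M-MDSCs and by 2.98 and 2.20 in PMN-MDSCs on the log2 scale (limma adjusted p = 1.06e-05, 0.00174, 1.43e-05 and 8.82e-05), from a low mean FPKM of 4.79 and 7.89. Ctss, cathepsin S of antigen-presenting cells, had a mean of 400.5 in vehicle PMN-MDSCs, 143 under MS-275 and 188 under CXD101 (-1.48 and -1.09, limma adjusted p = 2.32e-06 and 1.03e-05). It fell in M-MDSCs under MS-275 (-1.05, limma adjusted p = 4.49e-06). Lgmn, the asparaginyl protease legumain, fell in PMN-MDSCs from 80.7 to 27.8 and 28.7 (-1.50 and -1.46, limma adjusted p = 2.97e-05 and 5.35e-05), and Ctsz fell there by 1.13 and 0.90 (limma adjusted p = 6.91e-05 and 3.10e-04). Ctsb fell by 0.74 in M-MDSCs under MS-275 (limma adjusted p = 3.79e-05), and Ctsf rose there from 0.442 to 2.50 (1.27, limma adjusted p = 0.00103).

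Aspartic proteases other than Asprv1 moved in both directions. Of 5 tested, 1 was higher and 0 lower in M-MDSCs under either inhibitor, and 2 were higher and 1 lower in PMN-MDSCs under either. In M-MDSCs, 10.1% and 7.32% of all genes were called higher and lower under MS-275, and 5.14% and 3.0% under CXD101. In PMN-MDSCs the shares were 14.6% and 14.2% under MS-275, and 11.9% and 9.54% under CXD101. With 5 genes, from a list chosen with earlier results known, the counts and the p-values are a description. Bace1, the beta-secretase, rose in all 4 comparisons by 1.34 and 1.09 in M-MDSCs and 1.19 and 1.12 in PMN-MDSCs (limma adjusted p = 7.50e-05, 6.77e-04, 8.02e-05 and 1.69e-04). Napsa, napsin A, rose in PMN-MDSCs by 0.81 and 0.65 (limma adjusted p = 8.44e-05 and 3.48e-04). Ctsd, the lysosomal cathepsin D, was the most abundant of the 5 and fell there from a mean of 4253 to 2560 and 2498 (-0.73 and -0.77, limma adjusted p = 1.24e-04 and 1.69e-04). None of these reached the size of the Asprv1 difference.

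Protease inhibitors outside the cystatin family also went both ways. Of 11 tested in M-MDSCs, 3 were higher and 1 lower under MS-275 (10.1% and 7.32% of all genes). Under CXD101 2 were higher and 1 lower (5.14% and 3.0%). Of 12 tested in PMN-MDSCs, 2 were higher and 5 lower under MS-275 (14.6% and 14.2% of all genes). Under CXD101 2 were higher and 3 lower there (11.9% and 9.54%). With so few genes these counts are a description. So are the p-values, since the list was chosen with earlier results known and the largest called differences are named. Serpinb2, plasminogen activator inhibitor type 2, rose in all 4 (2.71 and 0.93 in M-MDSCs, 3.70 and 2.21 in PMN-MDSCs, limma adjusted p = 2.53e-05, 0.0113, 4.50e-07 and 4.88e-06). Serpinb1a, an inhibitor of neutrophil serine proteases, rose by 0.75 and 0.66 in M-MDSCs and by 2.32 and 2.14 in PMN-MDSCs (limma adjusted p = 4.34e-05, 2.87e-04, 1.51e-06 and 2.69e-06). Wfdc17, a whey acidic protein domain gene of myeloid cells, fell under MS-275 in M-MDSCs by 1.23 and in PMN-MDSCs by 2.58, and under CXD101 in PMN-MDSCs by 1.42 (limma adjusted p = 9.97e-05, 5.03e-05 and 0.00110). Less abundant genes also passed: Serpinb8 rose by 0.81 under MS-275 in M-MDSCs, Serpina3g fell by 0.64 under CXD101 in M-MDSCs, and Serpinb6b fell by 1.30 and 0.84 in PMN-MDSCs (limma adjusted p = 0.00899, 0.00231, 0.00170 and 0.0161).

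**Figure D5:**
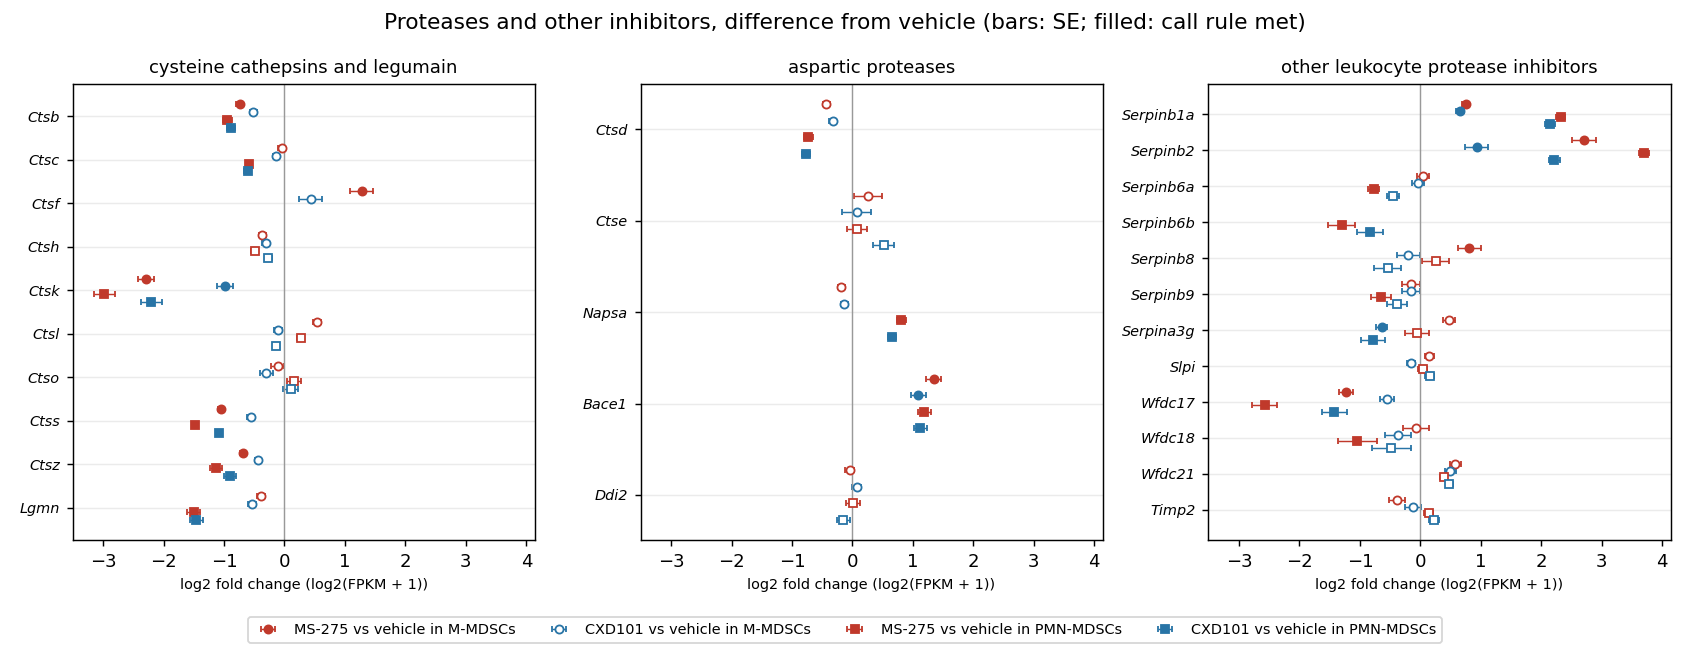
Log2 fold change from vehicle with SE bars, on the log2(FPKM + 1) scale, of every gene tested among cysteine cathepsins with legumain, aspartic proteases other than Asprv1, and other leukocyte protease inhibitors (circles M-MDSCs, squares PMN-MDSCs, red MS-275, blue CXD101, filled where the call rule was met). Ctsk is filled on the negative side in all 4 comparisons (-2.98 to -0.99), and Bace1, Serpinb1a and Serpinb2 on the positive side.

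The genes whose pattern was most like a member's were found among 515 genes by Pearson's r over the 12 libraries, after the mean of each cell type was subtracted. The 12 points share 6 groups and the same treatments, so r is a description. For the stefin A sum they were Anxa5 (0.943), Tgfbi (0.940), Insig1 (0.939), Klf4 (0.938) and C1qb (0.937). For Cstb they were Atp6v0d2 (0.992), Ehd4 (0.987), Tma16 (0.983), Myof (0.982) and Clec4a3 (0.979), and for Cst3 they were Tubb6 (0.944), Tusc1 (0.941), Psmb10 (0.932), Plk2 (0.930) and Pld4 (0.928). Cst7 had less close matches: Smim24 (0.894), Ptprcap (0.729), Dennd2a (0.722), Fcnb (0.704) and Chil3 (0.697). For Asprv1 they included H2-Oa (0.993), Scp2 (0.991), Sytl1 (0.991) and Pygm (0.990). C1qb, a complement gene on the macrophage marker list, had a mean FPKM of 14.7, 0.630 and 4.11 in M-MDSCs and 21.2, 0.448 and 2.86 in PMN-MDSCs under vehicle, MS-275 and CXD101. With Spearman's rho in place of r, 2 of the 5 genes named for the stefin A sum, 1 for Cstb, 2 for Cst3 and 5 for Cst7 were among the top 5, and without centring 0, 1, 1 and 0 were. Of the 5 genes found for Asprv1, 1 was among the top 5 with Spearman's rho and 0 without centring.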

How the data were processed

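RNA was sequenced by the authors from 12 sorted MDSC samples on TruSeq stranded mRNA libraries read single-end to 101 bases. The deposited values are FPKM per gene symbol, normalized by the authors for length and library size. The submitters' processing notes name TopHat2 2.1.1, Bowtie2 2.2.8, SAMtools 0.1.18, Cuffdiff 2.2.1 and mm10 without role or order, and the annotation and strand setting are not given in the sources used here. The paper's methods for sequencing describe M-MDSCs only. Members and gene lists were chosen with earlier results of these data known.

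FPKM were taken as log2(FPKM + 1) for genes with FPKM of at least 1 in at least 2 of the libraries fitted and compared with limma 3.58.1 (R 4.3.3, intensity trend, group means, Benjamini-Hochberg over all genes), within the 6 libraries of a cell type, or all 12 for comparisons of cell types. Calls needed adjusted p under 0.05 and fold change above 1.5, thresholds taken from the study. Fits were tested on simulated data. Named besides members were cystatin genes above 0, up to 4 called genes per list and comparison, and the 5 genes with the highest r among those with mean FPKM of at least 5 and SD of at least 0.5. FPKM are not counts, so depth was estimated from low values. Replicates of a group correlated at 0.988 to 0.991 across genes. Sequences came from GENCODE and RefSeq tables of GRCm38 and were handled with Biopython 1.88 and Python 3.11.15. No column was left out, and 1 gene that the likeness rule named for Asprv1 is not reported here.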

Additional observations from a re-analysis of the deposited data

Results flagged for a closer look

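Among the members and the cystatin superfamily list, a treatment's difference from vehicle was larger, smaller or opposite in PMN-MDSCs compared with M-MDSCs for 5 genes by the interaction term of the fit over 12 libraries; 2115 genes under MS-275 and 1620 under CXD101 met the same rule over all genes tested. The interaction is given as PMN-MDSC minus M-MDSC on the log2 scale. Under MS-275 the values were 2.10 for Asprv1, -1.05 for Gm5483, 3.70 for Camp and 3.74 for Ngp. Under CXD101 they were -1.60 for Stfa2l1, 1.80 for Asprv1, -2.12 for Gm5483, 2.67 for Camp and 3.05 for Ngp. Of these, Asprv1 and Stfa2l1 are members and were chosen with these libraries in view, and Gm5483 is a copy in their cluster, so no p-value is given for them. Their positions differ: Asprv1 was higher than vehicle in both cell types, whereas Stfa2l1 and Gm5483 differed from vehicle under CXD101 in PMN-MDSCs only by the call rule, with M-MDSC differences of -0.08 and -0.03. The Asprv1 interactions are overstated by the 1 added to its low M-MDSC values. Over the other settings they ranged from 1.62 to 2.44 under MS-275 and from 1.34 to 2.13 under CXD101. With 2 libraries a group no single library could be tested as an outlier.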

How the results depend on the processing

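Of 1036 log2 fold changes of members recomputed under other settings, 18 had another sign than the value reported, all where the value reported was within 0.13 of 0 and neither value met the call rule. With a fold change above 2 required, 3 members were called under MS-275 in M-MDSCs in place of 5, since Stfa3 and Cstb were lost. With the stefin A genes added up as 1 gene of 5, calls were 3 and 1 for MS-275 and CXD101 in M-MDSCs and 3 and 3 in PMN-MDSCs. They were 1 between the inhibitors in M-MDSCs and 4 between cell types. Where the sum was called, fewer calls follow by construction. Under CXD101 in M-MDSCs the sum was not called, although Stfa1 and Stfa2 were called lower and Stfa3 higher as single genes. Quantile normalization gave 2 interactions under MS-275 in place of 1. Leaving out 1 library at a time gave 4 to 5, 3 to 4, 5 to 6 and 5 to 6 calls for the treatment comparisons in the order above, 3 and 0 between the inhibitors in M-MDSCs and PMN-MDSCs, 7 between cell types, 1 to 3 interactions under MS-275 (2 without the second M-MDSC MS-275 library and 3 without the first PMN-MDSC vehicle library) and 2 to 4 under CXD101 (4 without the second PMN-MDSC CXD101 library); a lone library was then assumed to vary like the other groups. The log2 fold change of Stfa3 under MS-275 in M-MDSCs ranged from -1.03 to -0.40 over the settings. Stfa2 under CXD101 in M-MDSCs was not called without a filter, and Cstb under MS-275 in M-MDSCs was not called after quantile normalization; the cause was not tested. Over all genes, MS-275 against CXD101 in PMN-MDSCs gave 52 higher and 38 lower calls, but 3 and 1 with no filter on low values.

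Replicate numbers are shared between groups in the labels, but the methods of the study describe no pairing, so the numbers were not taken as pairs. Deviations of same-numbered libraries correlated at -0.126 to 0.179 over all pairs of groups. Between M-MDSCs and PMN-MDSCs of the same treatment they correlated at -0.103 (vehicle), -0.012 (MS-275) and -0.126 (CXD101). With 2 libraries a group these values cannot settle whether libraries share mice. With the replicate number as a block, 5, 4, 5 and 5 members were called in the treatment comparisons, 3 and 0 between the inhibitors, 7 between cell types and 1 and 2 for the interactions, the same counts as without it. Low depth limits Stfa1 and Stfa3 under MS-275, Stfa2 under CXD101 and Asprv1 under vehicle in M-MDSCs, where some libraries held fewer than 20 estimated reads. Because the estimates run high for short transcripts, further stefin A values in M-MDSCs may rest on as few reads.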
